A study of Mus musculus with 4 samples.

Results

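The T-cell receptor complex and its co-receptors are described here through 10 genes, out of the 54752 genes that the count files list by Ensembl identifier. They are the 4 CD3 chain genes Cd3d, Cd3e, Cd3g and Cd247, the 3 constant-region genes of the alpha-beta receptor Trac, Trbc1 and Trbc2, and the co-receptor genes Cd4, Cd8a and Cd8b1. The members were chosen by name from the biology of the complex, with earlier results of these data known. The identifiers were matched to mouse gene symbols, and each of the 10 was found on a row of its own. The RNA came from spleen cells of mice, in 2 libraries of WT and 2 libraries of Mek1/2-tKO cells, all taken on day 3 of a culture that favours T follicular helper (Tfh) cells. Mek1/2-tKO mice were Cd4-Cre+ and homozygous for floxed alleles of both targeted genes (Map2k1 fl/fl and Map2k2 fl/fl) on a C57BL/6 background, in which Cre recombinase, driven by regulatory sequences of Cd4, removes floxed parts of the genes of the kinases MEK1 and MEK2 in T cells. Whether the WT controls carried Cre, the age and sex of the mice of this experiment, and how many spleens went into a culture are not given in the sources used here. In both genotypes naïve CD4+ T cells were isolated from spleen with a magnetic kit, in a step that the methods call positive selection, and were cultured on plate-bound anti-CD3 with anti-CD28, IL-6 and blocking antibodies to TGF-β, IL-4, IFN-γ and IL-2. On the day of harvest the live cells were re-sorted and their RNA was extracted. The labels do not say whether the libraries of a genotype came from separate mice or cultures, so the p values measure the spread between these libraries, which may be technical.

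On the surface of most T cells an alpha and a beta chain recognise a peptide held by an MHC molecule, and the CD3 gamma, delta, epsilon and zeta chains around them carry the signal into the cell through motifs known as ITAMs. CD4 and CD8 are co-receptors that bind MHC class II and class I and bring the kinase LCK to the complex. Mature helper T cells carry CD4 without CD8, cytotoxic T cells usually carry a CD8 alpha-beta pair without CD4, and gamma-delta T cells use the same CD3 chains with other receptor chains.

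Library totals ranged from 16330802 to 18931090 counts, so that 3 counts, the limit that a count of 0 allows, equalled 0.158 to 0.184 CPM (counts scaled to a common library total), which covers counting error only. Levels are given as normalized CPM, scaled between libraries by edgeR's TMM method, and a gene was called higher or lower when edgeR's quasi-likelihood test gave a Benjamini-Hochberg adjusted p under 0.05 with a fold change of at least 1.5. All 10 members were among the 14330 genes with enough counts to be tested. Map2k1, which encodes MEK1, stood at 181 and 187 CPM in WT and at 97.9 and 105 CPM in Mek1/2-tKO, with a log2 fold change of -0.86 (SE 0.08, adjusted p = 1.29e-06 in edgeR's quasi-likelihood test). Map2k2, which encodes MEK2, stood at 154 and 165 CPM in WT and at 172 and 182 CPM in Mek1/2-tKO and did not pass (log2 fold change 0.15, SE 0.08, adjusted p = 0.126 in edgeR's quasi-likelihood test). A count over the whole gene does not show whether the floxed exons are missing. All 4 libraries are labelled as CD4+ T cells. In both Mek1/2-tKO libraries Cd4 was low and Cd8a exceeded Cd4 in counts. Most tested markers of other lymphocytes and of myeloid cells were also higher there than in WT. No Mek1/2-tKO library was without these markers, whose values are given after the members.

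Between the genotypes, Cd4, Cd3e, Trac and Cd247 were lower in Mek1/2-tKO, Cd8a and Cd8b1 were higher, and Cd3d, Cd3g, Trbc1 and Trbc2 were not called. That is 6 of 10 members called, 2 higher and 4 lower, where 35.8% of all tested genes were called, 19.3% of them higher and 16.4% lower as shares of the tested genes. The median log2 fold change was 0.07 over the members and 0.02 over all tested genes. DESeq2, which the study used, also called 2 members higher and 4 lower, against 26.9% of the 16965 genes for which it gave an adjusted p. The normalized CPM of the genotypes did not overlap for 7 of the 10 members, but this was so for 78.3% of all tested genes (39.5% higher and 38.8% lower in Mek1/2-tKO). The members together took 34330 and 33372 counts in WT and 24117 and 25970 counts in Mek1/2-tKO, which was 0.182 and 0.177% of the WT libraries and 0.148 and 0.137% of the Mek1/2-tKO libraries. In RNA from a cell population, fewer cells that express a gene and less RNA of it per cell cannot be told apart.

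**Figure D1:**
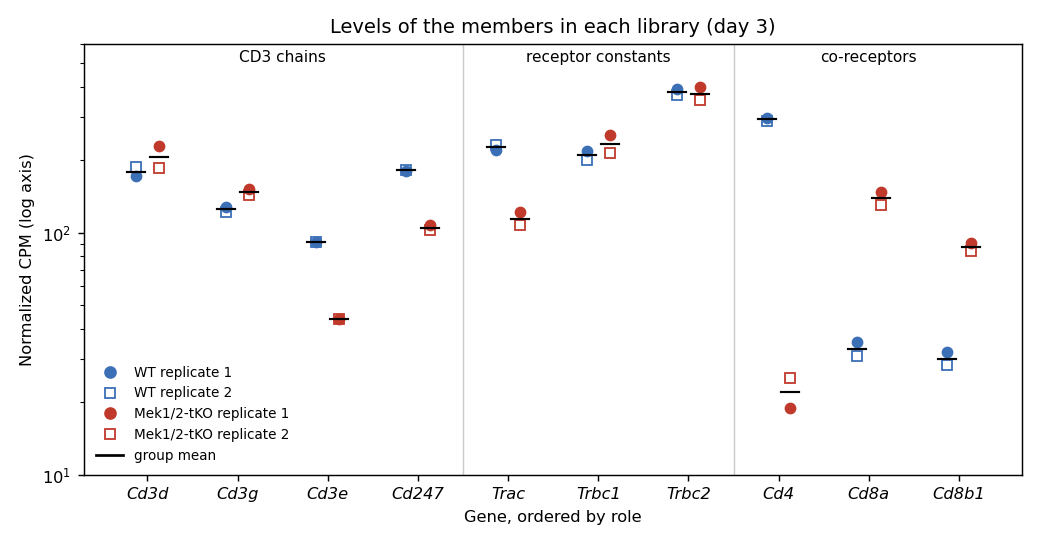
Normalized CPM (log axis) of the 10 members in each of the 4 libraries on day 3, ordered by role. Circles and squares are replicates 1 and 2, blue is WT, red is Mek1/2-tKO and black bars are group means. The WT and Mek1/2-tKO points lie far apart for Cd4, Cd8a and Cd8b1, and they overlap for Cd3d, Trbc1 and Trbc2.

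The CD3 chains divided into a pair that fell and a pair that was not called. Cd3e (ENSMUSG00000032093.7, GRCm38 chromosome 9, 44998740 to 45009627, minus strand) encodes CD3 epsilon, which pairs with the delta chain and with the gamma chain. Cd3e had 1789 and 1768 counts in WT and 680 and 829 counts in Mek1/2-tKO. On the normalized scale Cd3e stood at 91.7 and 91.6 CPM in WT and at 43.9 and 44.1 CPM in Mek1/2-tKO. Both Mek1/2-tKO libraries were thus below both WT libraries, with almost no spread within a genotype. The fall was 2.08-fold, a log2 fold change of -1.06 (SE 0.10, adjusted p = 7.2e-07 in edgeR's quasi-likelihood test).

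Cd247 (ENSMUSG00000005763.15, chromosome 1, 165788681 to 165877277, plus strand) encodes the zeta chain, which holds most of the ITAMs of the complex. Cd247 had 3485 and 3512 counts in WT and 1665 and 1913 counts in Mek1/2-tKO, or 179 and 182 CPM against 107 and 102 CPM. Both Mek1/2-tKO libraries lay below both WT libraries. The fall was 1.72-fold (log2 fold change -0.79, SE 0.08, adjusted p = 2.6e-06 in edgeR's quasi-likelihood test). Of the 5329 exon bases of Cd247, 56.4% lie under exons of Pou2f1 on the other strand and 3.9% under Gm16565 on the same strand. The counting took no account of strand, since all 454 genes whose exon bases all lie under exons of the other strand had 0 counts in all 4 libraries. The Cd247 counts therefore come from its 2116 unshared exon bases. For Cd3e, 3.3% of the exon bases are shared in this way, with Gm48719, and for the other 8 members none are.

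Cd3d and Cd3g encode the delta and gamma chains, each of which pairs with an epsilon chain. They lie head to head on chromosome 9, Cd3d (ENSMUSG00000032094.8) at 44981786 to 44987339 on the plus strand and Cd3g (ENSMUSG00000002033.14) at 44969572 to 44980431 on the minus strand, with 1355 bp between their starts. Cd3e lies on the other side of Cd3d, and 11401 bp separate the ends of both genes. Cd3d had 3334 and 3585 counts in WT and 3512 and 3454 counts in Mek1/2-tKO. Its CPM of 171 and 186 in WT and 227 and 184 in Mek1/2-tKO overlapped between the genotypes. The fold change of Cd3d was 1.15 (95% interval 0.995 to 1.33, adjusted p = 0.0945 in edgeR's quasi-likelihood test), and it was not called. Cd3g had 2483 and 2347 counts in WT and 2334 and 2681 counts in Mek1/2-tKO. At 127 and 122 CPM in WT and 151 and 143 CPM in Mek1/2-tKO, the genotypes did not overlap for Cd3g. Its fold change of 1.18 (adjusted p = 0.0254 in edgeR's quasi-likelihood test, 95% interval 1.04 to 1.33) did not reach 1.5-fold, and with scaling by library size alone its adjusted p was 0.154. The 95% intervals of both genes lie wholly above that of Cd3e, a fold of 0.417 to 0.553.

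The promoters of the 4 CD3 chain genes are shown because these genes work in one complex and, of the 4, Cd3e and Cd247 were called. The sequences are from RefSeq (GRCm38.p6), 300 bases each in the direction of the gene, and position 1 is the RefSeq start. Capitals mark matches, on either strand, to 5 short motifs. The ETS family motif was searched as CGGAAG. For RUNX factors the letters were TGTGGT. The E-box searched was CAGGTG, bound by some E proteins. For TCF1 and LEF1 they were CTTTGA. The motif of GATA factors was AGATAA. No match overlapped another in these windows.
Cd3e, chr9:45009562-45009861, minus strand: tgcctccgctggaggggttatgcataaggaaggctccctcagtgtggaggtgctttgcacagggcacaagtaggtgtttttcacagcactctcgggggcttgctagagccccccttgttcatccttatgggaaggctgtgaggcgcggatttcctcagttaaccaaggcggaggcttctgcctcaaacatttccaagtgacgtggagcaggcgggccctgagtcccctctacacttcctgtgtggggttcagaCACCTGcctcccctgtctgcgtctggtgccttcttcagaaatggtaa
Cd247, chr1:165788431-165788730, plus strand: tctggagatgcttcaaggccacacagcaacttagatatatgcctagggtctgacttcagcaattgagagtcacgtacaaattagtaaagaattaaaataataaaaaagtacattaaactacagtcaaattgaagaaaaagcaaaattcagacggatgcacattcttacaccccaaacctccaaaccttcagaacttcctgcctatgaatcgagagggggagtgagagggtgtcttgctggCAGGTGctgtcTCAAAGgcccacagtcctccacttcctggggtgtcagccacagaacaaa
Cd3d, chr9:44981536-44981835, plus strand: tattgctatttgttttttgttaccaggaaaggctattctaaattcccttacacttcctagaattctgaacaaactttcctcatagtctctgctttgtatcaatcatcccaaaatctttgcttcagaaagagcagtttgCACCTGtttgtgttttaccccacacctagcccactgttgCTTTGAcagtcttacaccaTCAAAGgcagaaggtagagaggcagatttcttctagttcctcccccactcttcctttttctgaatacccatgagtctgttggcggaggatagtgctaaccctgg
Cd3g, chr9:44980382-44980681, minus strand: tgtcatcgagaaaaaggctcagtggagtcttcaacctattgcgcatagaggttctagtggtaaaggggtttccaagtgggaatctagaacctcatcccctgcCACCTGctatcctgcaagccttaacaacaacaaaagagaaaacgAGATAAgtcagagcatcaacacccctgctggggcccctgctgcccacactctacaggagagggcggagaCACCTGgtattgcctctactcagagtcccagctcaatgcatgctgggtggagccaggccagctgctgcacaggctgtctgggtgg
The E-box was found in all 4 of these windows, beginning at position 4 in Cd3e, -10 in Cd247, -112 in Cd3d, and -148 and -35 in Cd3g. Among 32851 promoters of the same length, 20.2% hold it. The TCF-LEF motif was found at position 2 of Cd247 and at positions -73 and -54 of Cd3d (16.0% of all promoters), and the GATA motif at position -104 of Cd3g (11.2% of all promoters). The ETS and RUNX motifs, which 16.9% and 16.8% of all promoters hold, were not found in these windows, and none of the 5 motifs was found in the Cd8a promoter of the same table. The E-box letters were thus present both in the pair that fell and in the pair that was not called, and a match is a description of the sequence only.

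Among the constant genes of the receptor, Trac fell while both beta constants were not called. Trac (ENSMUSG00000076928.5, chromosome 14, 54220521 to 54224206, plus strand) encodes the constant part of the alpha chain. Trac had 4269 and 4431 counts in WT and 1877 and 2009 counts in Mek1/2-tKO, or 219 and 230 CPM against 121 and 107 CPM. The highest Mek1/2-tKO library was far below the lowest WT library. The fall was 1.97-fold (log2 fold change -0.98, SE 0.09, adjusted p = 5.41e-07 in edgeR's quasi-likelihood test).

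Trbc1 (ENSMUSG00000076490.6, chromosome 6, 41538218 to 41539881) and Trbc2 (ENSMUSG00000076498.2, chromosome 6, 41546730 to 41548352) are alternative constant genes of the beta chain, 6849 bp apart on the plus strand, and a rearranged beta chain uses one of them. Their sequences are shown because the counts of such close copies depend on the bases that differ. In GENCODE M21, whose exons match those of the count files for all 10 members, the coding parts are 521 bases each with the stop codon. The first exon holds 375 of these bases and differs at 1 position, base 260 of the coding part, whereas exons 2 to 4 hold the other 146 bases and differ at 22 positions. Capitals mark the bases that differ, in coding bases 230 to 290 and then in coding bases 376 to 521.
Trbc1, bases 230 to 290: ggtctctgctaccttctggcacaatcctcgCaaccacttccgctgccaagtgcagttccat
Trbc2, bases 230 to 290: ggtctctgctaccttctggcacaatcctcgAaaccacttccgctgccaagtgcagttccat
Trbc1, bases 376 to 521: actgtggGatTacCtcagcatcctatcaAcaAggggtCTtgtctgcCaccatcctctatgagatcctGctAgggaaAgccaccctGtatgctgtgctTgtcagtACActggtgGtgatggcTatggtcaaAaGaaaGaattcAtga
Trbc2, bases 376 to 521: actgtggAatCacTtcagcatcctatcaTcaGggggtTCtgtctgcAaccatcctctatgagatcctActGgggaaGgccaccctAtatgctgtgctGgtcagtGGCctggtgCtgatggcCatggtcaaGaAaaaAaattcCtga
A stretch as long as 1 read, 150 bases, is identical in both transcripts at 110 of 588 positions of Trbc1 (18.7%) and at 110 of 543 positions of Trbc2 (20.3%). The authors counted uniquely mapped reads, so reads from such stretches may be missing from both genes, and the split between them is uncertain to that extent.

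Trbc1 had 4212 and 3864 counts in WT and 3928 and 3997 counts in Mek1/2-tKO, or 216 and 200 CPM against 253 and 213 CPM. Trbc2 had 7656 and 7141 counts in WT and 6146 and 6597 counts in Mek1/2-tKO, or 393 and 370 CPM against 397 and 351 CPM. For both genes the libraries of the genotypes overlapped. The fold change was 1.12 for Trbc1 (95% interval 0.979 to 1.28, adjusted p = 0.143 in edgeR's quasi-likelihood test). It was 0.98 for Trbc2 (95% interval 0.87 to 1.1, adjusted p = 0.782 in edgeR's quasi-likelihood test), and the sign of the Trbc2 value depended on which library was left out. The intervals of both genes exclude a change of 1.5-fold in either direction, and the 1.97-fold fall of Trac lies outside them.

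**Figure D2:**
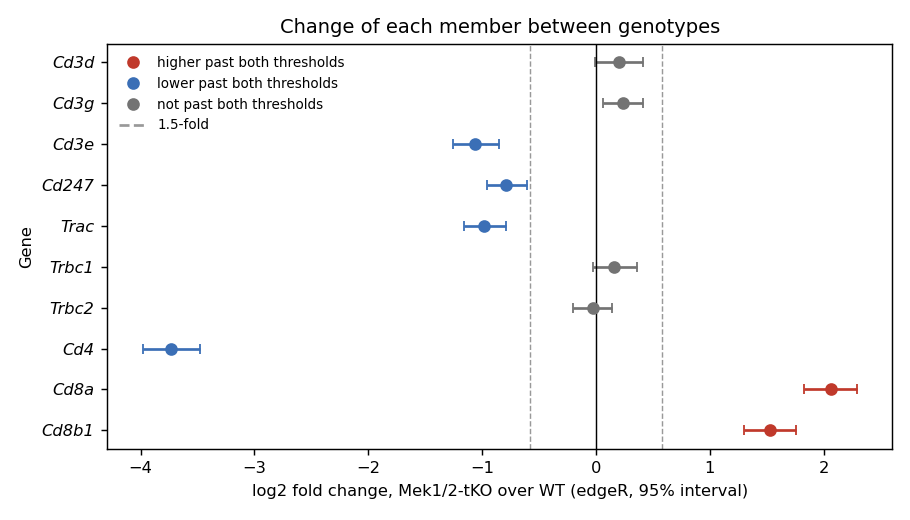
Log2 fold change of Mek1/2-tKO over WT for the 10 members, with 95% intervals derived from the edgeR fit. Red points are called higher, blue points are called lower and grey points are not called, and dashed lines mark a 1.5-fold change. Cd4 lies at -3.73 and Cd8a at 2.06, while the intervals of Cd3d, Cd3g, Trbc1 and Trbc2 stay inside the dashed lines.

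The co-receptor genes showed the members' lowest and highest log2 fold changes. Cd4 (ENSMUSG00000023274.14, chromosome 6, 124864692 to 124888221, minus strand) encodes the co-receptor of helper T cells, and the cells were isolated as CD4+ T cells at the start. Cd4 had 5788 and 5581 counts in WT and 291 and 472 counts in Mek1/2-tKO. On the normalized scale it stood at 297 and 289 CPM in WT and at 18.8 and 25.1 CPM in Mek1/2-tKO. No Mek1/2-tKO library came near the WT level, and the Mek1/2-tKO libraries differed from each other more, relative to their level, than the WT libraries did. The fall was 13.3-fold (log2 fold change -3.73, SE 0.12, adjusted p = 2.43e-11 in edgeR's quasi-likelihood test). Of the 14330 tested genes, Cd4 ranked 53 from the lowest log2 fold change. With 1 library left out the log2 fold change of Cd4 lay between -3.97 and -3.54.

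Cd8a (ENSMUSG00000053977.13, chromosome 6, 71373427 to 71379173) and Cd8b1 (ENSMUSG00000053044.8, chromosome 6, 71322788 to 71337494) are neighbours on the plus strand, 35933 bp apart. CD8 alpha can form a homodimer, which is also found on cells other than cytotoxic T cells, whereas CD8 beta reaches the surface together with CD8 alpha. Cd8a had 690 and 597 counts in WT and 2279 and 2442 counts in Mek1/2-tKO, or 35.4 and 30.9 CPM against 147 and 130 CPM. Cd8b1 had 624 and 546 counts in WT and 1405 and 1576 counts in Mek1/2-tKO, or 32 and 28.3 CPM against 90.7 and 83.8 CPM. Both genes had counts in every WT library, and both were higher in every Mek1/2-tKO library than in any WT library. Cd8a rose 4.17-fold (log2 fold change 2.06, SE 0.11, adjusted p = 3.03e-09 in edgeR's quasi-likelihood test), rank 883 from the highest. Cd8b1 rose 2.89-fold (log2 fold change 1.53, SE 0.11, adjusted p = 6.61e-08 in edgeR's quasi-likelihood test), rank 1259 from the highest.

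To order levels between genes, the normalized CPM was divided by the length in kb of the longest coding transcript, or of the constant-region transcript. In WT the order of these per-length levels was Trbc2 (551), Trbc1 (282), Trac (240), Cd3g (122), Cd3d (110), Cd4 (94.3), Cd3e (62.7), Cd8b1 (20.3) and Cd8a (10.6), as means of both libraries in CPM per kb. In Mek1/2-tKO it was Trbc2 (540), Trbc1 (316), Cd3g (143), Cd3d (127), Trac (122), Cd8b1 (58.8), Cd8a (44.3), Cd3e (30.1) and Cd4 (7.06). Cd4 thus moved from a level close to that of Cd3d, 93.0 to 95.5 CPM per kb in WT, to the last place, 6.04 to 8.08 CPM per kb in Mek1/2-tKO, and both CD8 genes passed it. Neighbours that overlapped between libraries of the same genotype were Cd3d with Trac and Cd3d with Cd3g in Mek1/2-tKO. Cd247 is left out because most of its exon bases lie under Pou2f1. With all annotated exon bases in place of 1 transcript, the WT per-length levels were 98.3 for Cd3d, 72.7 for Cd4, 38.1 for Cd3g and 23.2 for Cd3e, and the Mek1/2-tKO per-length levels were 113 for Cd3d, 44.9 for Cd3g, 38.1 for Cd8a, 11.2 for Cd3e and 5.44 for Cd4. The order thus depends on the bases used, in WT among Cd3g, Cd3d and Cd4, and in Mek1/2-tKO for Cd3g, which then came below Cd8b1 (58.8), and for Cd3d, which came below Trac (122).

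Ratios of counts within a library need no scaling between libraries, and each was compared by a two-sided exact permutation test, which with 2 libraries against 2 cannot give a p under 0.333. The Cd8a to Cd4 ratio was 0.119 and 0.107 in WT and 7.83 and 5.17 in Mek1/2-tKO. Cd4 thus had the larger count in both WT libraries and Cd8a in both Mek1/2-tKO libraries, a 56.4-fold difference between the group means on the log2 scale (exact permutation p = 0.333). The Trbc1 to Trbc2 ratio was 0.550 and 0.541 in WT and 0.639 and 0.606 in Mek1/2-tKO, a log2 difference of 0.19 (exact permutation p = 0.333). The Cd247 to Cd3e ratio was 1.95 and 1.99 in WT and 2.45 and 2.31 in Mek1/2-tKO, a log2 difference of 0.27 (exact permutation p = 0.333). For these 3 ratios the genotypes did not overlap, and no p adjusted over them could be smaller.

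A further 6 ratios were chosen after the data were seen and are given as descriptions. The Cd3d to Cd3e ratio was 1.86 and 2.03 in WT and 5.16 and 4.17 in Mek1/2-tKO, and the Cd3g to Cd3e ratio was 1.39 and 1.33 in WT and 3.43 and 3.23 in Mek1/2-tKO. Relative to epsilon, both partner chains were thus higher in each Mek1/2-tKO library than in each WT library. The Cd3g to Cd3d ratio, between the head-to-head neighbours, was 0.745 and 0.655 in WT and 0.665 and 0.776 in Mek1/2-tKO and overlapped between the genotypes. The Trac to Trbc2 ratio was 0.558 and 0.621 in WT and 0.305 in each Mek1/2-tKO library. The Cd4 to Trbc2 ratio was 0.756 and 0.782 in WT and 0.0473 and 0.0715 in Mek1/2-tKO. The Cd8b1 to Cd8a ratio was 0.904 and 0.915 in WT and 0.616 and 0.645 in Mek1/2-tKO. Cd8b1 counts were thus lower than Cd8a counts in all 4 libraries, and more so in Mek1/2-tKO, but counts depend on transcript length. Per kb of transcript the order was the reverse. Cd8b1 stood at 21.6 and 19.1 CPM per kb in WT and at 61.1 and 56.5 in Mek1/2-tKO. Cd8a stood at 11.3 and 9.89 CPM per kb in WT and at 47.0 and 41.5 in Mek1/2-tKO.

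**Figure D3:**
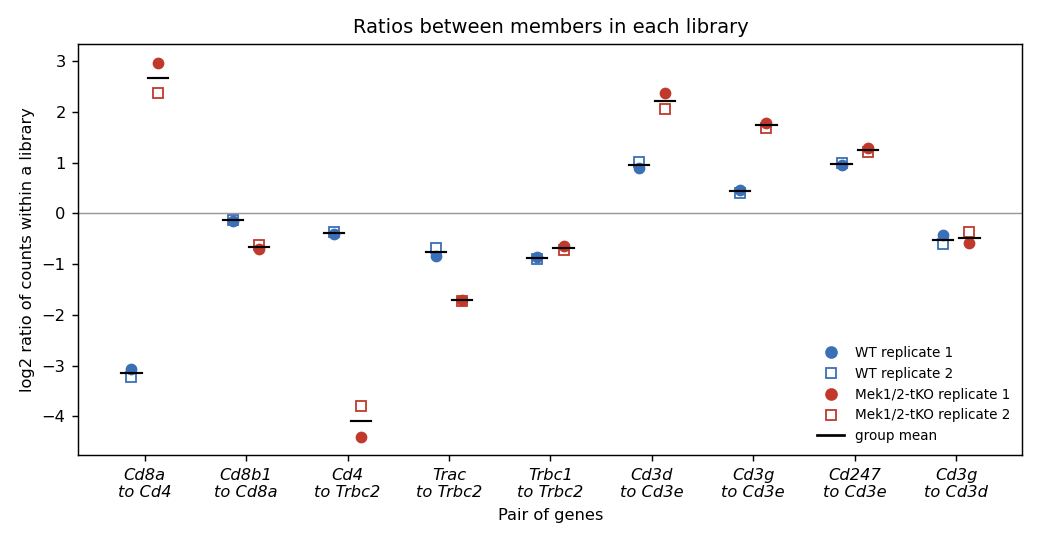
Log2 ratios of raw counts between pairs of members within each library. Circles and squares are replicates 1 and 2, blue is WT, red is Mek1/2-tKO, black bars are group means of the log2 ratios, and the grey line marks equal counts. The Cd8a to Cd4 ratio crosses the line between the genotypes, and the Cd3g to Cd3d ratio overlaps between them.

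The constant genes of the gamma-delta receptor were set beside those of the alpha-beta receptor, since both receptors use the CD3 chains. Trdc, the constant gene of the delta chain, had a per-length level of 0.424 and 0.402 CPM per kb in WT and of 15.0 and 13.8 CPM per kb in Mek1/2-tKO. Trgc4, a constant gene of the gamma chain, stood at 0.937 and 0.842 CPM per kb in WT and at 49.8 and 48.6 CPM per kb in Mek1/2-tKO. Both were low in WT and higher in both Mek1/2-tKO libraries, with log2 fold changes of 5.12 (SE 0.17) for Trdc and 5.78 (SE 0.19) for Trgc4, adjusted p = 3.89e-11 and 3.78e-11 in edgeR's quasi-likelihood test. Trgc1 and Trgc2 rose as well (log2 fold changes 4.09 and 4.65), but these genes are close copies of each other and the split of reads between them is uncertain. The WT counts of Trgc1 were 30 and 7, and leaving out WT replicate 1 or WT replicate 2 gave it a log2 fold change of 5.47 or 3.40. Of the summed per-length level of Trdc and Trac, Trdc made up 0.181 and 0.163% in WT and 10.3 and 10.8% in Mek1/2-tKO. These shares depend on the transcript lengths used, 3865 bases for Trdc and 935 for Trac. In raw counts Trdc had 32 and 30 in WT and 897 and 1006 in Mek1/2-tKO. Trac had 4269 and 4431 in WT and 1877 and 2009 in Mek1/2-tKO. Of the summed per-length level of the gamma constants Trgc1, Trgc2 and Trgc4 and both beta constants, the gamma constants made up 0.650 and 0.341% in WT and 12.6 and 12.8% in Mek1/2-tKO. The per-length level of Trac relative to the sum of Trbc1 and Trbc2 was 0.272 and 0.305 in WT and 0.142 and 0.143 in Mek1/2-tKO. The alpha-beta constants thus remained the larger part in all 4 libraries.

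**Figure D4:**
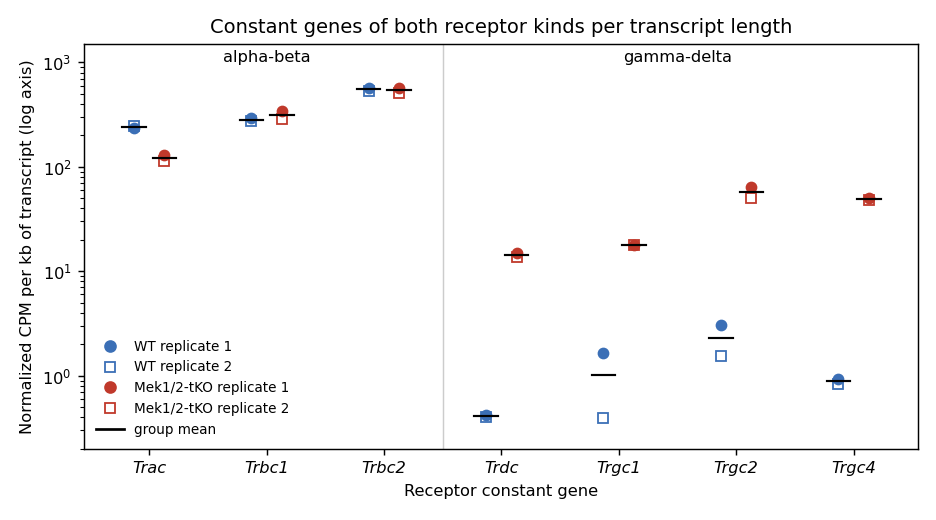
Normalized CPM per kb of transcript (log axis) of the constant genes of the alpha-beta receptor (left) and of the gamma-delta receptor (right) in each library. Circles and squares are replicates 1 and 2, blue is WT, red is Mek1/2-tKO and black bars are group means. The delta and gamma constants lie above 10 CPM per kb in the Mek1/2-tKO libraries and at or under 3.03 CPM per kb in the WT libraries.

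Genes of proximal receptor signalling, a list that holds genes that carry the signal and genes that restrain it, fell more often than they rose. Of 29 genes of proximal receptor signalling, all tested, 13 were called lower and 3 higher, with a median log2 fold change of -0.54, where 16.4% and 19.3% of all tested genes were lower and higher. Trat1, an adaptor that associates with the receptor complex, fell from 24.7 and 20.7 CPM in WT to 4.00 and 3.35 CPM in Mek1/2-tKO (log2 fold change -2.63, SE 0.20). Plcg1, the phospholipase that makes the second messengers of the receptor, fell from 85.5 and 83.4 CPM to 23.7 and 23.8 CPM (log2 fold change -1.83, SE 0.10). Cblb, a ubiquitin ligase that restrains the receptor, and the adaptor Fyb also fell, with log2 fold changes of -1.48 and -1.23. Among named kinases, Zap70, which binds the phosphorylated ITAMs, fell from a mean of 285 to 132 CPM (log2 fold change -1.11, SE 0.08), while Lck, the kinase brought by the co-receptors, had a log2 fold change of -0.54 (412 to 283 CPM) and stayed under the fold threshold. Among the 3 higher genes, the adaptors Dok1 and Sla2 had log2 fold changes of 0.81 and 0.60, and that of Sla2 fell short of the fold threshold with scaling by library size alone (0.51). Exons of other genes cover 23.6% of the exon bases of Sla2 and 10.2% of those of Fyb.

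Among 16 regulators of the Cd4 and Cd8 loci and of T-cell identity, 8 were lower and 1 was higher, with a median log2 fold change of -0.84. Zbtb7b, which encodes ThPOK, the factor that keeps the CD8 genes silent in helper T cells, fell from 65.0 and 66.0 CPM in WT to 30.5 and 30.2 CPM in Mek1/2-tKO (log2 fold change -1.11, SE 0.10, adjusted p = 1.13e-06 in edgeR's quasi-likelihood test). Runx3, which silences Cd4 in cytotoxic T cells, fell as well, from 93.5 and 95.4 CPM to 39.4 and 44.9 CPM (log2 fold change -1.16, SE 0.10, adjusted p = 5.66e-07 in edgeR's quasi-likelihood test). The factors that act against each other on the co-receptor loci were thus both lower. Gata3, Satb1, Tox and Lef1 had the lowest values of the list, with log2 fold changes of -2.10, -2.0, -1.98 and -1.77, and Myb rose, with 0.64 (0.56 and under the fold threshold with scaling by library size alone). Lef1 shares 13.7% of its exon bases with other genes. Of 5 genes of immature T cells, cells that at one stage carry CD4 and CD8 together, Ptcra and Rag2 had 0 counts in all 4 libraries. Rag1 had at most 3 counts in any library, Arpp21 was not tested, and Dntt was tested and not called.

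Other surface genes of T cells did not move in a single direction. Of 9 pan-T-cell surface genes, 5 were lower and 3 higher, with a median log2 fold change of -1.10. Cd28, Cd5, Cd2 and Spn were lower, with log2 fold changes of -1.99, -1.55, -1.22 and -1.18, whereas Cd96, Thy1 and Ptprcap were higher, with 0.97, 0.83 and 0.73. All 7 of the helper T-cell surface and cytokine genes were lower, with a median of -1.68, among them Cd40lg (-3.95), the ligand by which helper T cells act on B cells, Ctla4 (-2.97), Il21 (-2.53) and Izumo1r (-1.68).

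**Figure D5:**
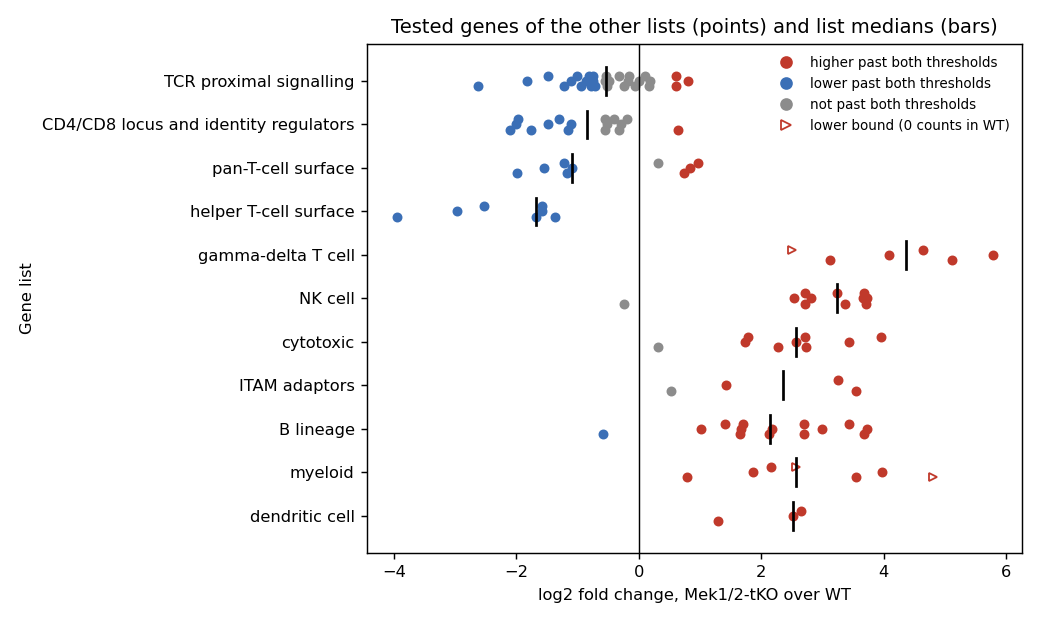
Log2 fold changes of Mek1/2-tKO over WT for the tested genes of 11 gene lists. Each point is a gene, red called higher, blue called lower and grey not called, open triangles are lower bounds for 3 genes with 0 counts in both WT libraries, and black bars are list medians with these bounds. The T-cell lists at the top have medians below 0, and the lists below them have medians above 2.

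Markers of cells other than CD4+ T cells differed between the same libraries in which the members differed, and their part in the members' results was not tested. Cytotoxic genes are given beside them but were not taken as markers of a cell type. Among these, Gzmb stood at 1380 and 1350 CPM in WT and at 4980 and 4440 CPM in Mek1/2-tKO (log2 fold change 1.78, SE 0.08). It made up most of the summed level of the cytotoxic genes in both genotypes. Of 11 NK-cell genes, 10 were higher and none lower, and their summed level was 709 to 732 CPM in WT and 1130 to 1160 CPM in Mek1/2-tKO, of which Il2rb, which was not called, made up 637 CPM on average in WT cells and 534 CPM in Mek1/2-tKO cells. Ncr1, a defining NK-cell receptor, stood at 0.769 and 0.829 CPM in WT and at 11.5 and 9.84 CPM in Mek1/2-tKO. Klre1, Klrc1 and Klri2 were the other NK-cell genes of largest change, with log2 fold changes of 3.71, 3.67 and 3.66, and Klri2, with WT counts of 2 and 17, had 2.82 when WT replicate 1 was left out and 5.84 when WT replicate 2 was. Of 10 cytotoxic genes, 8 of the 9 tested were higher, with a median of 2.57 and a summed level of 1680 to 1710 CPM in WT and of 7300 to 8210 CPM in Mek1/2-tKO. Ifng, Ccl5, Crtam and Nkg7 led these, with log2 fold changes of 3.95, 3.43, 2.73 and 2.72, and Nkg7 is also on the NK-cell list. Ifng shares 25.9% of its exon bases with other genes. Of 8 gamma-delta T-cell genes, all 6 tested were higher, with a median of 4.88 and a summed level of 4.77 to 6.97 CPM in WT and of 166 to 186 CPM in Mek1/2-tKO. With Trgc3, which had 0 counts in WT, at its lower bound against 3 counts per library, a fold of at least 5.67, the median was 4.37. Cd163l1 was not tested, and Zbtb16 had at most 3 counts in any library.

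Fcer1g and Tyrobp encode ITAM-bearing adaptors that serve Fc, NK-cell and myeloid receptors in the way that CD3 serves the T-cell receptor. Tyrobp stood at 1.33 and 1.76 CPM in WT and at 20.3 and 16.0 CPM in Mek1/2-tKO (log2 fold change 3.54, SE 0.25), and Fcer1g at 2.36 and 3.01 CPM in WT and at 25.8 and 25.7 CPM in Mek1/2-tKO (log2 fold change 3.26, SE 0.20). Syk, the kinase related to Zap70 that is abundant in B cells, was higher (log2 fold change 1.43), and Hcst, an adaptor without an ITAM, was not called (0.52). Of these 4 genes 3 were higher and none lower, with a summed level of 68.4 to 69.1 CPM in WT and 205 to 209 CPM in Mek1/2-tKO.

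Of 14 B-lineage genes, 13 were higher and 1 lower, with a median of 2.14, and their summed level was 1720 to 1760 CPM in WT and 8680 to 8810 CPM in Mek1/2-tKO. Cd79b, Ighd, Cd79a and Cr2 were the highest, with log2 fold changes of 3.73, 3.68, 3.43 and 3.00, and Cd79a, a signalling chain of the B-cell receptor, stood at 56.8 and 58.9 CPM in WT and at 629 and 614 CPM in Mek1/2-tKO, so that B-lineage transcripts were present in every library. Fcer2a was the lower gene (log2 fold change -0.59), and it was not called in some other settings. Of 10 myeloid genes, all 7 tested were higher, with a median of 3.55 and a summed level of 51.6 to 60.2 CPM in WT and of 247 to 259 CPM in Mek1/2-tKO, of which Mpeg1, also expressed in B cells, made up most. With Adgre1 and S100a8, which had 0 counts in WT, at their lower bounds, folds of at least 28.0 and 5.94, the median was 2.57. Lyz2 had a log2 fold change of 3.97, and Cd68 rose least (0.78, adjusted p = 0.0462 in edgeR's quasi-likelihood test, and not called in several other settings). Itgam, Csf1r and Fcgr1 had few counts and were not tested. Itgam had 2 and 0 counts in WT and 3 and 8 in Mek1/2-tKO. Csf1r had 0 and 8 in WT and 36 and 10 in Mek1/2-tKO. Fcgr1 had 4 and 4 in WT and 4 and 2 in Mek1/2-tKO. Of 7 dendritic-cell genes, the 3 tested, Itgax, Flt3 and Zbtb46, were higher, with log2 fold changes of 2.65, 2.52 and 1.29 and a summed level of the list of 7.88 to 9.18 CPM in WT and of 26.7 to 29.4 CPM in Mek1/2-tKO. Xcr1, Clec9a, Siglech and Cd209a were not tested, and Clec9a, Siglech and Cd209a had 0 counts in both WT libraries.

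The genes whose pattern over the 4 libraries was nearest to that of Cd4 and of Cd8a were found by the distance between centred log2 CPM values, among 9595 genes whose log2 CPM averaged 3 or more. Nearest to Cd4 were Egln3 (distance 0.25), a prolyl hydroxylase of the hypoxia response, Lgals7 (0.26), a galectin, Slc16a3 (0.32), a lactate transporter, Fads2 (0.33), a fatty acid desaturase, and Tgfbr3 (0.39), a TGF-β co-receptor. Egln3 stood at 160 and 168 CPM in WT and at 11.6 and 12.2 CPM in Mek1/2-tKO. Nearest to Cd8a were Pkib (0.07), an inhibitor of protein kinase A, Ms4a1 (0.12), which encodes the B-cell protein CD20, Cd24a (0.12), Clec2d (0.13), a ligand of an NK-cell receptor, and Ms4a4b (0.13). Pkib stood at 37.3 and 32.7 CPM in WT and at 151 and 144 CPM in Mek1/2-tKO. With 4 libraries in 2 groups, many genes have nearly the same pattern, so the likeness is a description of these libraries.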

How the data were processed

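RNA of 2 WT and 2 Mek1/2-tKO libraries was sequenced in pairs of 150 nucleotides. The authors trimmed reads with Trimmomatic 0.36, mapped them to GRCm38 (the mapper is written as STRA in the methods), ran featureCounts (Subread 1.5.1) on uniquely mapped reads and deposited the raw counts, which are not normalized. The library kit keeps strand, but the counting did not use it, as the genes lying wholly under exons of the other strand showed. The annotation release is not given in the sources used here, and 53861 of the 54752 genes had the same exons as GENCODE M21. Symbols were found for 54723 genes, and the gamma constants were matched through RefSeq synonyms.

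All genes were fitted in R 4.3.3 with edgeR 4.0.16 (low counts removed by filterByExpr, TMM scaling, quasi-likelihood test on genotype with robust estimation), with Benjamini-Hochberg adjustment over the 14330 genes tested, and the fit was tested on simulated data. Each SE was derived from this fit as the absolute log2 fold change divided by the square root of the F statistic. The 95% intervals were built from that SE with a t quantile. Thresholds (adjusted p under 0.05, fold change of at least 1.5) follow the study. Python 3.11.15 and scipy 1.17.1 gave ratios, exact permutation tests and sequence comparisons. The alternatives changed the test (DESeq2 1.42.0 or a likelihood-ratio test), the scaling (library size alone or DESeq2's size factors), the filter (none, or 10 counts in each library as a minimum) or the thresholds, added a replicate block, or left out a library.

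The members and lists were chosen with earlier results of these data known. Genes named from a list are those called with the largest fold change, up to 4 in each direction whose log2 CPM averaged 1 or more. Outside this rule, and chosen after their values were seen, are Zap70, Lck, Zbtb7b, Runx3, Hcst, Il2rb, Gzmb, Dntt, S100a8, Trgc3 and the genes given as not tested. The 5 genes nearest to Cd4 and to Cd8a needed an average of 3 or more. Some genes of the lists are counted in them but are not reported here by name.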

Additional observations from a re-analysis of the deposited data

How the results depend on the processing

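Of 853 values under alternatives, 828 kept their direction and their call (or, for ratios and counts, stayed close to the value reported). Of the others, 20 lost their call, 1 count moved and 4 changed sign. The 853 include the Cd8a to Cd4, Trbc1 to Trbc2 and Cd247 to Cd3e ratios with counts divided by exon length. Such a division cannot change a difference between genotypes, so these values were the same by construction. All alternatives that kept the thresholds called 2 members higher and 4 lower, as did each fit with 1 library left out. At a fold change of at least 2, 2 members were lower, Cd4 and Cd3e. The log2 fold change of Trbc2 was 0.01 without WT replicate 1 and 0.05 without Mek1/2-tKO replicate 2 (-0.12 to 0.05 with each library left out), and the log2 difference of the Cd3g to Cd3d ratio was -0.05 without WT replicate 2 and -0.07 without Mek1/2-tKO replicate 2 (-0.07 to 0.15 with each library left out). The cause was not tested. Sla2, Myb, Fcer2a and Cd68 were among the genes that lost a call. Same-numbered libraries of the genotypes did not deviate together (correlation -0.0262 across genes), which does not show whether they shared a day or a culture. A replicate block left 2 members higher and 4 lower, with Cd4 at -3.74. Scaling by library size alone made 45.6% of all calls higher in place of 54.0% and moved the median log2 fold change of all genes from 0.015 to -0.069. With 2 libraries a genotype, a difference as small as that of Cd3d or Trbc1 could not be placed on one side of no change.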
